A study of Mus musculus with 2 samples.

Results

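Krt8-high transitional alveolar cells are epithelial cells of the injured lung that carry high keratin 8 and claudin 4 together with low transcript levels of mature alveolar cells. They were taken here from 2 single-cell RNA sequencing libraries, 1 from *Pclaf* WT and 1 from *Pclaf* KO mice. Both groups received bleomycin at 1.35 U/kg, the dose given with the data, and were 8 to 10 weeks old. The study's results and methods name slightly different doses. Lung cells negative for Cd31 and Cd45 and positive for Epcam were sorted 1 week after bleomycin. The members were selected on measured UMIs of the marker genes themselves. A cell was a member if it had at least 1 unique molecular identifier (UMI, a counted transcript) of both *Krt8* and *Cldn4* and at least 1 UMI of 2 or more of *Sfn*, *Plaur*, *Gdf15*, *Tnip3*, *Cdkn1a* and *Krt19*. It also had less than 5% of its UMIs from *Sftpc* and less than 5% from *Scgb1a1*, no UMI of *Ptprc*, *Pecam1*, *Muc5b*, *Bpifb1* or *Foxj1*, and fewer than 3 of the AT1 markers *Ager*, *Rtkn2*, *Akap5*, *Spock2*, *Igfbp2* and *Hopx*. The rule found 420 of 45824 kept cells, 50 of 30187 in the WT library and 370 of 15637 in the KO library. The members held 280742 UMIs in WT, with a median of 5148.5 per cell, and 2668193 UMIs in KO, with a median of 6606. No barcode was shared between the members of the 2 libraries.

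The KO mice came from an established line, and no uninjured lung was analysed here. How many animals went into each library was not given in the sources used here. With 1 library per genotype, a difference between genotypes cannot be told apart from a difference between animals, sorts or libraries, and no test was made. Levels are counts per 1000000 (CPM) of the UMIs summed over the members of a library, and every interval in the text is a 95% interval that covers counting error only.

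In the alveolus, flat AT1 cells form the surface for gas exchange, and cuboidal AT2 cells make surfactant and act as progenitors that can become AT1 cells. After injury, some AT2 cells, and some airway cells, pass through a state marked by keratin 8, claudin 4, the p53 target p21 and growth differentiation factor 15. Cells of this state have lost surfactant transcripts, carry stress and p53 programmes, and have not yet gained a full set of AT1 transcripts. The state is found in bleomycin injury of the mouse, and related cells accumulate in human fibrotic lung.

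*Pclaf*, which encodes a PCNA-binding protein of replicating cells and is the targeted gene, was at 39.3 CPM (38.1 to 40.6) in all kept cells of the WT library and at 5.19 CPM (4.76 to 5.65) in those of the KO library, but the WT library held far more Ptprc-positive cells (at least 2 UMIs of *Ptprc* and none of *Epcam*), which carried 2099 of its 3763 UMIs in WT. Within populations it was at 54.8 CPM (52.5 to 57.2) in WT and 31.0 CPM (23.1 to 40.8) in KO for Ptprc-positive cells, at 9.66 (6.25 to 14.3) and 4.46 CPM (3.86 to 5.12) for AT2 cells and at 5.25 (1.43 to 13.4) and 3.08 CPM (1.59 to 5.39) for AT1 cells. In club cells it was no lower in KO, at 6.38 and 6.71 CPM, and in ciliated cells it was at 2.98 and 2.04 CPM. The level therefore followed the labels in Ptprc-positive and AT2 cells, with overlapping intervals in AT1 and ciliated cells, and UMIs of the gene were still counted in KO. In the members, *Pclaf* had 0 UMIs in WT and 3 UMIs in KO. The interval of the WT zero reaches 13.1 CPM, and the genotype could therefore not be read from the members themselves. Some other genes of dividing cells were as scarce, with 0 UMIs in WT and 1 in KO for *Mki67*, 0 and 4 for *Top2a*, and 1 and 7 for *Cdk1*. The Krt8-high cells of both libraries were thus sampled almost without transcripts of these genes. Genes of G1/S and replication were not as scarce, with a sum of 331 CPM in WT and 258 CPM in KO members. In AT2 cells that sum was 238 and 209 CPM.

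The genes that chose the members were high in them and are described without a test. *Krt8*, an intermediate filament of simple epithelia (GRCm38 chr15:101996698-102004482, minus strand), was at 1699 CPM (1550.0 to 1859) in WT and at 1552 CPM (1505 to 1599.6) in KO members. In the comparison populations, *Krt8* was at 235 and 208 CPM in AT2 cells, which were taken as cells with at least 5% *Sftpc*, and at 815 and 983 CPM in AT1 cells, taken as cells with at least 3 of the 6 AT1 markers. *Cldn4*, a sealing tight junction claudin, was at 759 CPM (660.2 to 868) in WT and at 754 CPM (722 to 788) in KO. It was the more restricted of the 2, with 3.48 and 3.70 CPM in AT2 cells and 44.6 and 115 CPM in AT1 cells. The AT1 cells include 14 of 336 in WT and 121 of 688 in KO that met every other condition of the rule. Those cells held 32 and 432 *Cldn4* UMIs, at 285 and 397 CPM. A WT member had a median of 5 *Krt8* UMIs and 2 *Cldn4* UMIs, and a KO member 6.5 and 3. *Cdkn1a*, which encodes the cell cycle inhibitor p21, was at 2290 CPM in WT and at 2512 CPM in KO, over 130 and 120 CPM in AT2 cells. *Krt19*, a keratin of simple and ductal epithelia, was at 816 and 906 CPM.

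The remaining marker genes were found in fewer members. *Gdf15*, a stress-induced TGF-beta family cytokine, was at 438 CPM in WT and at 377 CPM in KO and had a UMI in 42.0% of WT and 34.1% of KO members, over 1.79% and 4.14% of ciliated cells, which had median depths of 5749.5 and 7729 UMIs. *Tnip3*, a brake on NF-kB, was at 239 and 272 CPM and was found in 40.0% of WT and 40.8% of KO members, over 0.893% and 2.26% of ciliated cells. *Plaur*, the urokinase receptor, was at 296 CPM (235 to 366) in WT and at 191 CPM (175 to 208) in KO. *Sfn*, which encodes the p53-induced 14-3-3 sigma protein, was at 1165 CPM in WT and at 629.6 CPM in KO, a KO over WT ratio in log2 of -0.89 (-1.06 to -0.71). That ratio was -0.54 once the highest cell of each library was left out, and it turned to 0.47 where the limits on detected genes per cell were read as limits on UMIs, which left 24 WT members. With all members, each of the 8 genes lay within 2-fold between the libraries.

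**Figure D1:**
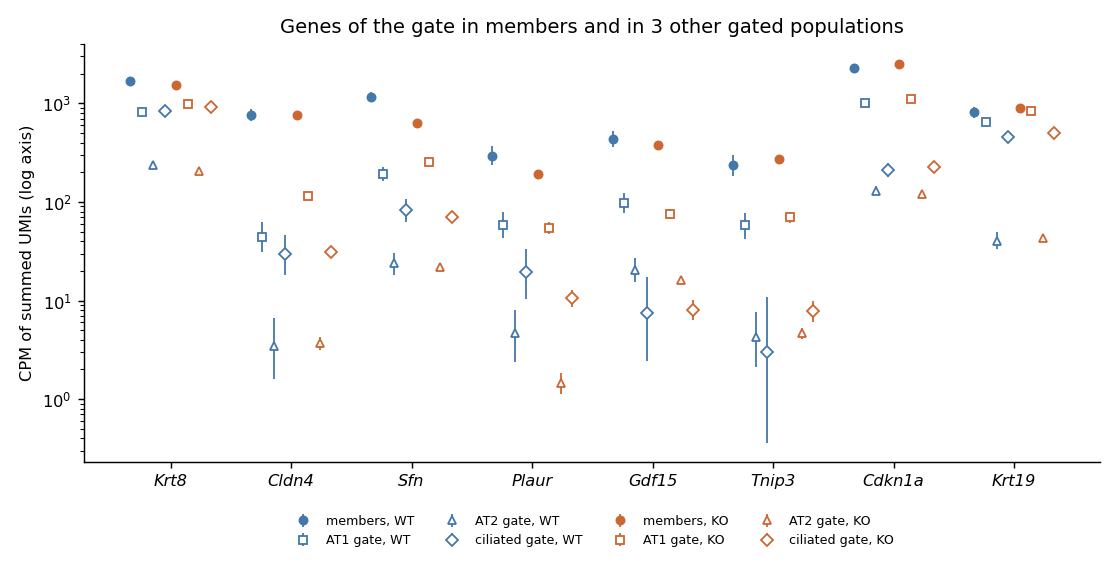
CPM of summed UMIs (log axis) of the 8 genes used to choose the members, in Krt8-high members (filled) and in AT1, AT2 and ciliated cells (open), for the WT (blue) and KO (orange) libraries, with exact 95% Poisson intervals as bars. *Cldn4* sits near 750 CPM in members of both libraries and near 3.5 CPM in AT2 cells, while *Krt8* and *Krt19* differ less between members and AT1 or ciliated cells.

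The promoters of 4 of the genes that mark these cells are shown because they hold a motif of AP-1 or of ATF4/CHOP, the transcription factor families of the stress programmes described for the state. Each is the 250 bases before the annotated start (RefSeq, GRCm38.p6), with the match in capitals. *Cldn4* lies on chr5:134946935-134947184 (minus strand) and has AP-1 matches 240 and 158 bases before the start. *Plaur* lies on chr7:24462233-24462482 (plus strand), with an AP-1 match at 69 bases. *Plet1*, a surface protein of epithelial progenitors, lies on chr9:50494275-50494524 (plus strand), with an AP-1 match at 144 bases. *Sfn* lies on chr4:133602169-133602418 (minus strand), with an ATF4/CHOP match at 106 bases.
Cldn4: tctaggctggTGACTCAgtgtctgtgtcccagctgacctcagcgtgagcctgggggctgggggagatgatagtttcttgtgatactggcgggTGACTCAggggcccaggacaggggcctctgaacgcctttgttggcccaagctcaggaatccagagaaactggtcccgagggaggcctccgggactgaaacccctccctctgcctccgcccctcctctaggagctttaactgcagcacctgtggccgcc
Plaur: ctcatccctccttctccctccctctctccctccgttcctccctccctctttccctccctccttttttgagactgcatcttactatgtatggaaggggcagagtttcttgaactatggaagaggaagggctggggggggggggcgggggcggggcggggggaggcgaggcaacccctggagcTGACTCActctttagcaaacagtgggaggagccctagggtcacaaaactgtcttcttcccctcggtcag
Plet1: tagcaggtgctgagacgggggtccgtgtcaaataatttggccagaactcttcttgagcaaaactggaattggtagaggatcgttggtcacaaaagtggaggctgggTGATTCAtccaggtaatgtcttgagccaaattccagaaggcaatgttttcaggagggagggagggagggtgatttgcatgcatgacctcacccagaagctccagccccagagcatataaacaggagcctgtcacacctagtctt
Sfn: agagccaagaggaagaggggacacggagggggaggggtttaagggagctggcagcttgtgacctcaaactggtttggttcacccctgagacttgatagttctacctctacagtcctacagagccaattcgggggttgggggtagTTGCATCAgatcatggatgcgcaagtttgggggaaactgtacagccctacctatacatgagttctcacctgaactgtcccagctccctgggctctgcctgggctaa

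The AP-1 motif TGANTCA, searched on both strands, was found in the promoters of 6 of 23 genes (of the 28 looked up, namely the genes of the rule above and the 20 highest over AT2 and AT1 cells, 23 matched) (*Cldn4*, *Plaur*, *Clic1*, *Plet1*, *Emp1* and *Ddit3*), which is 26.1%, beside 7.82% of 27025 genes. The ATF4/CHOP motif TGATGNAA was in 2 of the 23 (*Sfn* and *Nupr1*), 8.7% beside 3.91% of all genes. The TEAD motif GGAATG was in 3 of the 23 beside 14.4% of all genes, and the motif TTTGAA of cell cycle promoters in 3 beside 18.3%. In the 4 promoters shown no other motif of the 4 was found, and a match is a description of the sequence only.

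The members were next compared with AT2 and AT1 cells of the same library, to see which programmes they carry. Genes that the rule used are left out of the counts and sums of lists against AT2 and AT1 cells. Because the rule chose them for low *Sftpc* and few AT1 markers, these values describe the cells and are not tests. Of 10336 genes with at least 20 UMIs over the members, 22.5% were at least 2-fold higher than in AT2 cells in both libraries and 4.91% at least 2-fold lower. Against AT1 cells, 3.34% were at least 2-fold higher and 4.59% lower. The AT1 cells include cells that met every other condition of the rule. Those held 112447 of 761760 AT1 cell UMIs in WT and 1088213 of 3891655 in KO, and their part in the comparisons was not tested. Genes with fewer UMIs over the members did not enter, so genes scarce in members could not be counted as lower. Lists of genes are read against these shares.

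Of the lists with 10 or more tested genes, targets of p53 had the highest share above AT2 cells, closely followed by the transitional-state list below. Without *Cdkn1a*, *Gdf15* and *Sfn*, which chose the members, 23 of 25 measured p53 and senescence genes were at least 2-fold higher than in AT2 cells in both libraries and 0 lower, and 6 were higher and 0 lower than in AT1 cells. The summed level of these genes was 4121 CPM in WT and at 3998 CPM in KO members, over 815 and 721 CPM in AT2 cells and 2045 and 2310.3 CPM in AT1 cells. *Mdm2*, the ubiquitin ligase that limits p53, was at 417 CPM in WT and at 344 CPM in KO, a log2 ratio over AT2 cells of 3.49 and 3.32 and over AT1 cells of 1.80 and 1.35. *Phlda3*, an inhibitor of AKT, was at 409.6 and 459 CPM, 4.01 and 4.04 above AT2 cells on the log2 scale. *Perp*, a desmosome protein induced by p53, was at 260.0 and 239.9 CPM, and *Bax*, a pro-apoptotic BCL2 family member, at 492 CPM in both libraries. In ciliated cells *Mdm2* was at 259 and 216 CPM.

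Genes of the integrated stress response were higher in 14 of 21 against AT2 cells and in 11 of 21 against AT1 cells, with 1 and 0 lower. *Ddit3*, the transcription factor CHOP, was at 182 CPM in WT and at 173 CPM in KO members, over 12.7 and 16.3 CPM in AT2 cells. *Nupr1*, a stress-induced chromatin protein, was at 1482 and 1504 CPM, with log2 ratios of 2.33 and 2.03 over AT2 cells and 2.13 and 2.28 over AT1 cells. *Atf4*, the factor that drives this response, was at 271 CPM in WT and at 203 CPM in KO, 1.28 and 1.52 above AT2 cells on the log2 scale.

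Structural genes were higher than in AT2 cells for part of each list. Among keratins other than *Krt8* and *Krt19*, 5 of 8 were higher than in AT2 cells and 4 than in AT1 cells, led by *Krt18*, the partner of keratin 8, at 2105 CPM in WT and at 2401 CPM in KO. *Krt7* was at 648 and 728 CPM and lay below AT1 cells, which held 1092 and 1117 CPM. Of 14 claudin and tight junction genes other than *Cldn4*, 8 were higher than in AT2 cells, with *Cldn3*, another sealing claudin, at 619.8 CPM in WT and at 759 CPM in KO. *Cldn18*, the main claudin of alveolar cells, was at 449 and 585 CPM with log2 ratios over AT1 cells of -1.94 and -1.76. It had a UMI in 54.0% of WT and 57.6% of KO members, beside 87.3% and 94.3% of AT2 cells. Of 24 integrin, laminin and matrix genes, *Plaur* left out, 18 were higher than in AT2 cells, 4 higher and 6 lower than in AT1 cells. *Itgb6*, a subunit of the integrin that activates latent TGF-beta, was at 132 and 159 CPM, below the 377 and 458 CPM of AT1 cells.

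A list of 30 transitional-state genes outside the rule, drawn from general knowledge of the state, had 27 genes higher and 0 lower than in AT2 cells, and 12 higher and 3 lower than in AT1 cells. *Lgals3*, the beta-galactoside-binding galectin 3, was at 3405 CPM in WT and at 3162 CPM in KO. *Clu*, a secreted chaperone, was at 2522 and 1878 CPM. *Areg*, an EGF receptor ligand of tissue repair, was at 356 and 382 CPM, but ciliated cells held 313 and 261 CPM of it. *Hbegf*, another EGF receptor ligand, was at 192 and 249 CPM, over 38.2 and 35.8 CPM in AT2 cells. *Clic1*, a chloride intracellular channel family member, and *Emp1*, a tetraspan membrane protein, were among the genes highest over both populations, at 638 and 696 CPM and at 331 and 241 CPM.

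Lists near signalling pathways were counted in the same way. TGF-beta and SMAD response genes were higher than in AT2 cells in 11 of 21 and higher than in AT1 cells in 1, with 3 lower than in AT1 cells. YAP/TAZ and TEAD response genes were higher than in AT2 cells in 8 of 17 and lower than in AT1 cells in 5, with none of the 17 higher than in AT1 cells by 2-fold in both libraries. *Ctgf*, a matricellular target of both pathways, was at 114 CPM in WT and at 51.4 CPM in KO members, over 9.66 and 7.06 CPM in AT2 cells and below the 319 and 269.6 CPM of AT1 cells. NF-kB feedback genes were higher than in AT2 cells in 9 of 16. AT1 identity genes lay between the populations, with 9 of 17 higher than in AT2 cells and 13 of 17 lower than in AT1 cells. *Clic5*, an AT1 gene outside the rule, was at 224 and 190.0 CPM in members, over 65.3 and 44.2 CPM in AT2 cells and under 1489 and 1335 CPM in AT1 cells. AT2 identity genes were lower than in AT2 cells in 18 of 19. Levels of both lists thus match a cell that is neither AT2 nor AT1. The rule, through *Sftpc* and the 6 AT1 markers, set this property in part. So did the choice of the comparison cells, since AT2 cells also had to carry *Lamp3* and *Slc34a2*.

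Of 17 lung epithelial transcription factors, *Hopx* left out, 3 were higher and 5 lower than in AT2 cells, beside 22.5% and 4.91% of all genes, and 4 were higher and 1 lower than in AT1 cells. *Nkx2-1*, the lung lineage transcription factor, was at 121 CPM in WT and at 105 CPM in KO members, log2 ratios of -1.79 and -1.67 over AT2 cells. *Id2*, a helix-loop-helix factor of distal lung progenitors, was at 67.7 and 73.8 CPM, over 320.2 and 312 CPM in AT2 cells. *Klf5*, a factor of AT1 differentiation, was at 235 and 178 CPM, against 90.8 and 79.6 CPM in AT2 cells. *Epcam*, on which the cells were sorted, had a UMI in 84.0% of WT and 84.3% of KO members.

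Markers of other lineages were present in some members. The check required at least 2 mesenchymal, 3 club, 3 ciliated, 2 basal, 1 mesothelial, 2 endothelial or 2 immune markers, and 11 of 50 WT members (22.0%, 11.5 to 36.0) and 60 of 370 KO members (16.2%, 12.6 to 20.4) met it for some lineage. The largest such group was mesenchymal, with 5 WT and 27 KO members. The 5 mesenchymal markers summed to 249 CPM in WT and at 233 CPM in KO, with *Col3a1*, a fibrillar collagen, the most abundant at 125 and 109 CPM and *Pdgfrb* at 0 in WT. Basal markers summed to 49.9 and 41.6 CPM, led by *Krt5*, which came from 1 WT and 8 KO members. Club markers summed to 1118 and 2190 CPM, led by *Scgb1a1*, which had a UMI in 98.9% of KO members and 99.0% of KO Ptprc-positive cells at median shares of 0.111% and 0.128% of UMIs, and no club expression was read from it. Goblet markers summed to 0 and 172 CPM, led by *Ltf*. Immune markers summed to 96.2 CPM in WT and at 20.6 CPM in KO, led by *C1qa* and *Tyrobp*. Mesothelial markers summed to 142 and 122 CPM, led by *Msln*, with *Upk3b*, *Wt1* and *Lrrn4* at 0 in WT. Ciliated markers summed to 149.6 and 229 CPM, led by *Tppp3*, and endothelial markers to 49.9 and 4.87 CPM, led by *Kdr*.

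Surfactant transcripts were higher in KO than in WT members, and the level in cells that do not make surfactant was higher too. *Sftpc*, the surfactant protein of AT2 cells that the rule limits, was at 192 CPM in WT and at 3822 CPM in KO members. Ciliated cells as a sum held 1788 CPM in WT and at 11597 CPM in KO, where the highest ciliated cell had 2710 UMIs and the median one 8. The median share of *Sftpc* among the UMIs of a cell was 0.1097% in KO members and 0.1087% in KO ciliated cells, and 0 in both populations of WT. A UMI of *Sftpc* was found in 34.0% of WT and 99.7% of KO members, and in 43.8% and 99.7% of ciliated cells. *Slc34a2*, the phosphate transporter of AT2 cells, was at 7.12 and 130 CPM in members and at 93.9 and 313 CPM in ciliated cells. *Lcn2*, an iron-binding protein of activated AT2 cells, was at 10.7 and 173 CPM in members and at 56.7 and 199 CPM in ciliated cells. UMIs of *Slc34a2* were found in 25.4% of KO members and 25.6% of KO ciliated cells, and of *Lcn2* in 20.8% and 19.4%. For these 3 genes the summed level of the KO members was below that of ciliated cells and the share with a UMI was within 2 points of it, and no expression was read from the typical member. Some members stood apart, since 12 KO members had 0.5 to 2% and 17 had 2 to 5% of their UMIs from *Sftpc*.

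The summed level of surfactant protein D was above that of ciliated cells in KO. *Sftpd*, a collectin of innate defence, was at 638 CPM in KO members and 442 CPM in KO ciliated cells, a log2 ratio of 0.53 (0.45 to 0.61). In WT it was at 189 and 151 CPM, a ratio of 0.33 (-0.18 to 0.82). The 341 KO members with under 0.5% *Sftpc* held 444 CPM of *Sftpd* (418 to 472), close to the ciliated level, and the 17 with 2 to 5% held 2838 CPM (2597 to 3096). *Napsa*, an aspartic protease of AT2 cells, was at 92.6 CPM in WT members over 20.9 CPM in ciliated cells and at 183 CPM over 142 CPM in KO. *Sftpa1* was at 581 CPM in WT members, beside 561 CPM in ciliated cells, but only 8.0% of WT members had a UMI of it.

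**Figure D2:**
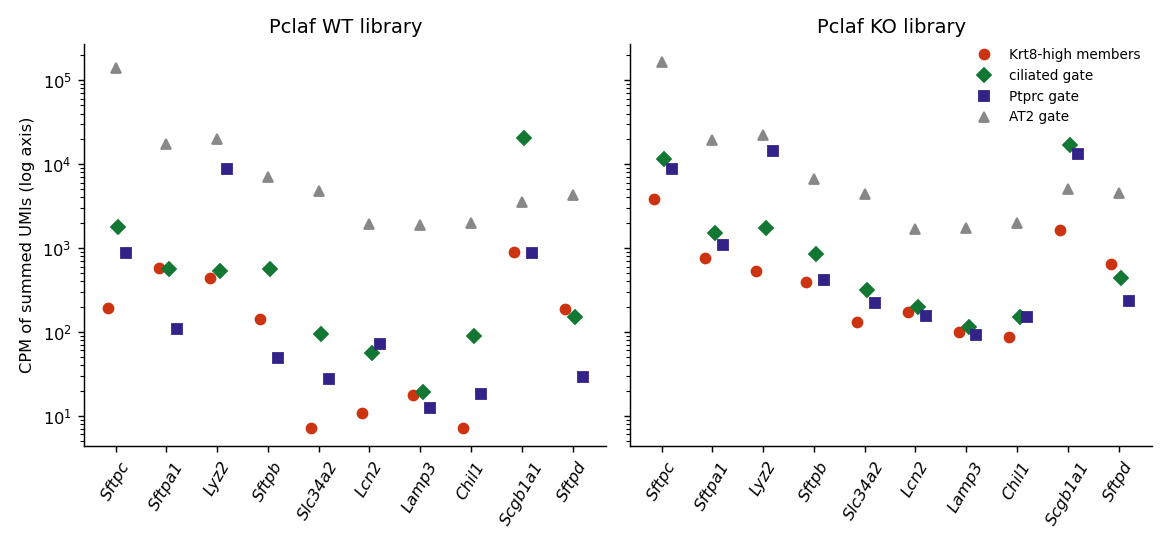
CPM of summed UMIs (log axis) of 10 AT2 and club transcripts in Krt8-high members, ciliated cells, Ptprc-positive cells and AT2 cells of the WT and KO libraries. In KO, *Sftpc* lies at 3822 CPM in members and 11597 CPM in ciliated cells, and of the 10 genes *Sftpd* lies above the ciliated level in members of both libraries.

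Members differed among themselves in how many of the 6 AT1 markers they carried. In WT, 17 members had 0, 25 had 1 and 8 had 2, and in KO 128, 140 and 102 members did. At the edge of the rule, 10 WT and 75 KO cells met every other condition but had 3 AT1 markers. KO members with 0, 1 and 2 markers had median totals of 5642, 6977 and 6878.5 UMIs, so those with 0 were the shallowest. *Ager*, 1 of the 6, also had a UMI in 89.4% of WT and 94.3% of KO AT2 cells. The parts of depth and of AT2 transcripts in the number detected were not tested.

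In KO, some genes of AT1 cells that the rule did not use were higher where more AT1 markers were found. *Cldn18* was at 228 CPM in KO members with 0 markers, 548 CPM with 1 and 1002 CPM with 2, a log2 ratio of 2 markers over 0 of 2.14 (1.90 to 2.38). *Aqp5*, the water channel of AT1 cells, was at 146, 289.9 and 545 CPM, a ratio of 1.90 (1.60 to 2.20). *Itgb6* was at 108, 134 and 244 CPM, a ratio of 1.18 (0.81 to 1.57). The order continued in the cells with 3 or more markers outside the rule, where *Cldn18* was at 1638 CPM, *Aqp5* at 924 CPM and *Itgb6* at 399 CPM. For other AT1 genes the interval of the ratio held 0, with ratios of -0.09 (-0.45 to 0.26) for the semaphorin *Sema3e*, -0.10 (-0.64 to 0.45) for *Pxdc1*, 0.22 (-0.22 to 0.66) for caveolin 1 (*Cav1*) and 0.58 (-0.08 to 1.25) for podoplanin (*Pdpn*). Genes of AT2 cells and of the lung lineage ran with the AT1 markers too, with ratios of 2.10 (1.86 to 2.35) for *Sftpd*, 1.77 (1.12 to 2.46) for *Lamp3*, which was highest with 1 marker (32.5, 138 and 111 CPM), and 1.53 (1.03 to 2.06) for *Nkx2-1*, so the gradient was not limited to AT1 genes. The 17 KO members with the most *Sftpc* held 153 of the 263 *Lamp3* UMIs and 507 of the 1703 *Sftpd* UMIs of KO members.

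*Ddit3*, a transcription factor of the stress response outside the rule, ran the other way in KO, at 255 CPM in members with 0 markers, 158 CPM with 1 and 111 CPM with 2, a ratio of -1.20 (-1.58 to -0.84). The secreted chaperone clusterin (*Clu*) did not, at a ratio of 0.61 (0.50 to 0.73). Levels of genes that the rule used are given as a description only. *Gdf15* was at 613, 275 and 279 CPM in KO members with 0, 1 and 2 markers, *Cldn4* at 977, 699.9 and 603 CPM and *Krt8* at 1460, 1496 and 1722 CPM. The WT members did not show the KO order for every gene, since *Ddit3* was at 101, 143 and 370 CPM and *Gdf15* at 342, 601 and 193 CPM over 17, 25 and 8 cells.

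**Figure D3:**
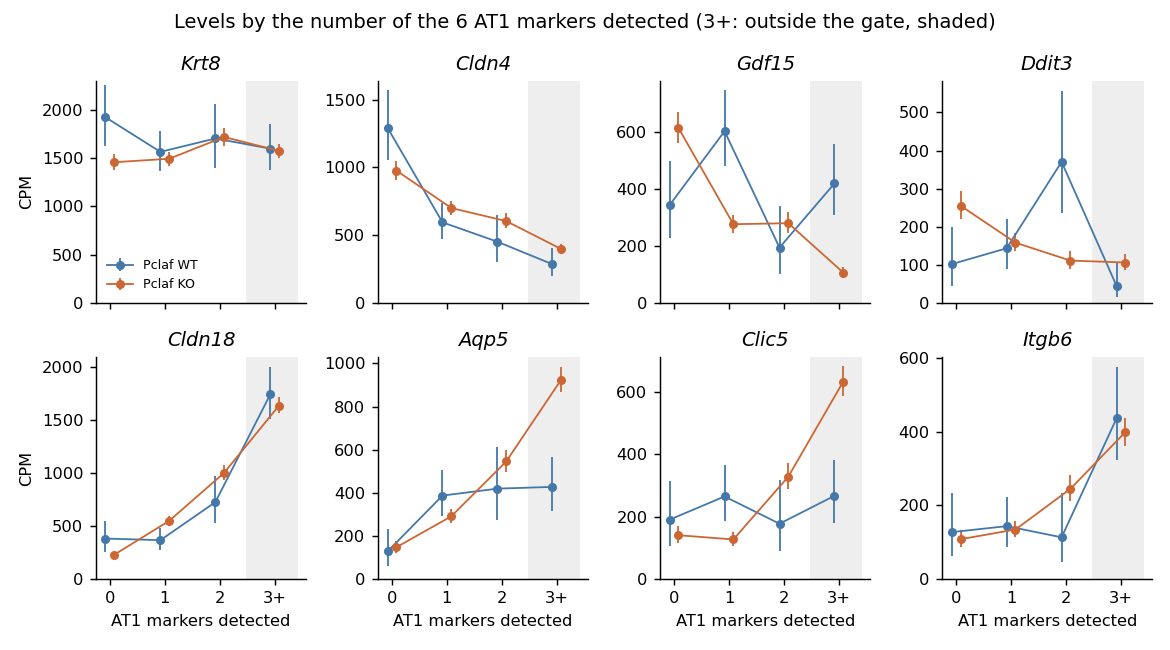
CPM of 8 genes in cells with 0, 1 or 2 of the 6 AT1 markers (members) and with 3 or more (outside the rule, shaded), for WT (blue) and KO (orange), with exact 95% Poisson intervals as bars and axes from 0. In KO, *Cldn18*, *Aqp5*, *Clic5* and *Itgb6* are higher and *Cldn4*, *Gdf15* and *Ddit3* lower in cells with 2 markers than in cells with 0. The 8 WT members with 2 markers have wide intervals.

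A few KO members held more *Sftpc*. Of the 370 KO members, 341 had under 0.5% of their UMIs from *Sftpc*, 12 had 0.5% to 2% and 17 had 2% or more, and in WT 49, 1 and 0 members did. In the 17 cells, *Krt18* was at 1495 CPM beside 2502 CPM in the 341, *Cdkn1a* at 1136 beside 2636 CPM, and *Lamp3*, a lysosome-related protein of AT2 cells, at 857 beside 41.1 CPM. The highest *Sftpc* share inside the rule was 0.573% in WT and 4.59% in KO, and the lowest outside it was 5.94% and 5.45%.

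The share of Krt8-high cells depended on the cells they were counted against. Among all kept cells it was 0.166% (0.123 to 0.218) in WT and 2.37% (2.13 to 2.62) in KO, which is 14.3-fold. The WT library held 8603 cells with at least 2 UMIs of *Ptprc* and none of *Epcam* against 304 in KO, so its kept cells were in large part not epithelial. Against the sum of Krt8-high, AT2 and AT1 cells, the share was 5.63% (4.21 to 7.36) in WT and 5.29% (4.78 to 5.84) in KO, a difference of -0.34 percentage points with overlapping intervals. Against Krt8-high and AT1 cells alone it was 12.95% (9.77 to 16.7) in WT and 34.97% (32.1 to 37.9) in KO. The AT1 cells counted here include 14 WT and 121 KO cells that met every other condition of the rule. AT1 cells of the WT library had a median depth of 883 UMIs, against 5097.5 in KO, and AT2 cells had 4936.5 and 7200.5.

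The conditions against other lineages removed unequal parts of the 2 libraries. Of the cells that met the conditions on *Krt8*, *Cldn4*, the second markers, *Sftpc* and *Scgb1a1*, 129 were in WT and 669 in KO, and requiring no *Ptprc* and no *Pecam1* left 75 in WT and 649 in KO. Whether immune and endothelial RNA in WT droplets removed Krt8-high cells was not tested. With the whole rule applied to cells thinned to a random 2000 of their UMIs, shallower cells being left out, the share was 0.258% in WT and 1.80% in KO.

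KO members were then compared with WT members over all genes. Of the 10336 genes tested, 9.42% were at least 2-fold higher in KO, 4.43% at least 2-fold lower, and the median log2 ratio was 0.02. These shares include genes with few UMIs, and they are what a list of any kind is read against. In simulated Poisson counts at the members' depth, 9.83% of unchanged genes passed 2-fold in either direction. A call of a single gene is therefore not read as a difference between the genotypes. When each gene's highest cell of each library was left out, 1500 genes were at least 2-fold higher in place of 974, and 211 lower in place of 458. The order turned in other settings. With at least 1 UMI per gene, 974 were higher and 2838 lower, and under a stricter rule on other lineages 406 were higher and 468 lower.

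Lists that define the Krt8-high state held few genes past 2-fold between the genotypes. Those of p53, keratin, tight junction and integrin genes keep *Cdkn1a*, *Gdf15*, *Sfn*, *Krt8*, *Krt19*, *Cldn4* and *Plaur* here. The rule chose members on these genes in both libraries and so set part of this likeness. Of the 30 transitional-state genes, 1 was higher in KO (*Plat*) and 1 lower (*Ctgf*), with a median log2 ratio of -0.09. Of the 28 p53 genes, 1 was higher (*Ddit4*) and 0 lower, with a median of 0.00. Of 21 integrated stress response genes, 1 was higher (*Ddit4*) and 1 lower (*Phgdh*), median -0.16. Of 10 keratins, 2 were higher (*Krt15* and *Krt17*), each with UMIs in 1 WT member and 10 or 8 KO members, and 0 lower. Both ratios turned below 0 without the members that carried markers of other lineages, to -1.77 and -1.04. Of 15 tight junction genes 2 were higher and 0 lower, and of 25 integrin and matrix genes 1 was higher and 0 lower. In the transitional, p53, stress response and integrin lists, the share of genes 2-fold higher in KO was under the 9.42% of all genes. In the keratin and tight junction lists it was above it. The share lower in KO was above the 4.43% of all genes in the stress response list and under it in the others. The lists were not matched in level to all genes, which include many with few UMIs.

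Lists near TGF-beta and YAP signalling had medians below 0, which some alternatives turned. Of 21 TGF-beta and SMAD response genes, 0 were higher and 3 lower (*Tgfb3*, *Smad7* and *Ctgf*), with a median of -0.25 (-0.43 to 0.20 over the alternatives). *Smad7*, the inhibitory SMAD induced by TGF-beta, was at 210.2 CPM in WT and at 96.7 CPM in KO, a log2 ratio of -1.12 (-1.53 to -0.69), -0.73 without the highest cells and 0.28 where the limits were read as UMIs. Of 17 YAP/TAZ and TEAD genes, 1 was higher (*Ankrd1*) and 2 lower (*Ctgf* and *Axl*), median -0.32 (-0.64 to 0.04 over the alternatives). *Ctgf* came from 7 WT and 43 KO members and had a ratio of -1.15 (-1.71 to -0.55), which turned to 2.00 with the rule applied at 2000 UMIs. *Cyr61*, its paralogue and another YAP target, went the other way, at 125 CPM in WT and at 228 CPM in KO, a ratio of 0.87 (0.38 to 1.41).

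AT1 genes showed no common direction. Of 21 AT1 identity genes, AT1 markers of the rule among them, 2 were higher in KO (*Ager* and *Limch1*) and 0 lower, with a median of 0.02. *Ager*, the receptor RAGE of AT1 cells and 1 of the 6 AT1 markers limited by the rule, was at 146 CPM in WT and at 507 CPM in KO members, with UMIs in 17 of 50 and 151 of 370, a log2 ratio of 1.80 that was 0.43 with the rule applied at 2000 UMIs. It was at 31.3 and 146 CPM in ciliated cells, so its level outside AT1 cells also differed between the libraries. *Ager* also had a UMI in 89.4% of WT and 94.3% of KO AT2 cells, beside 34.0% and 40.8% of members. *Clic5* had a ratio of -0.24 (-0.62 to 0.16), and *Emp2*, a tetraspan protein of AT1 cells, of 0.02 (-0.22 to 0.27).

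**Figure D4:**
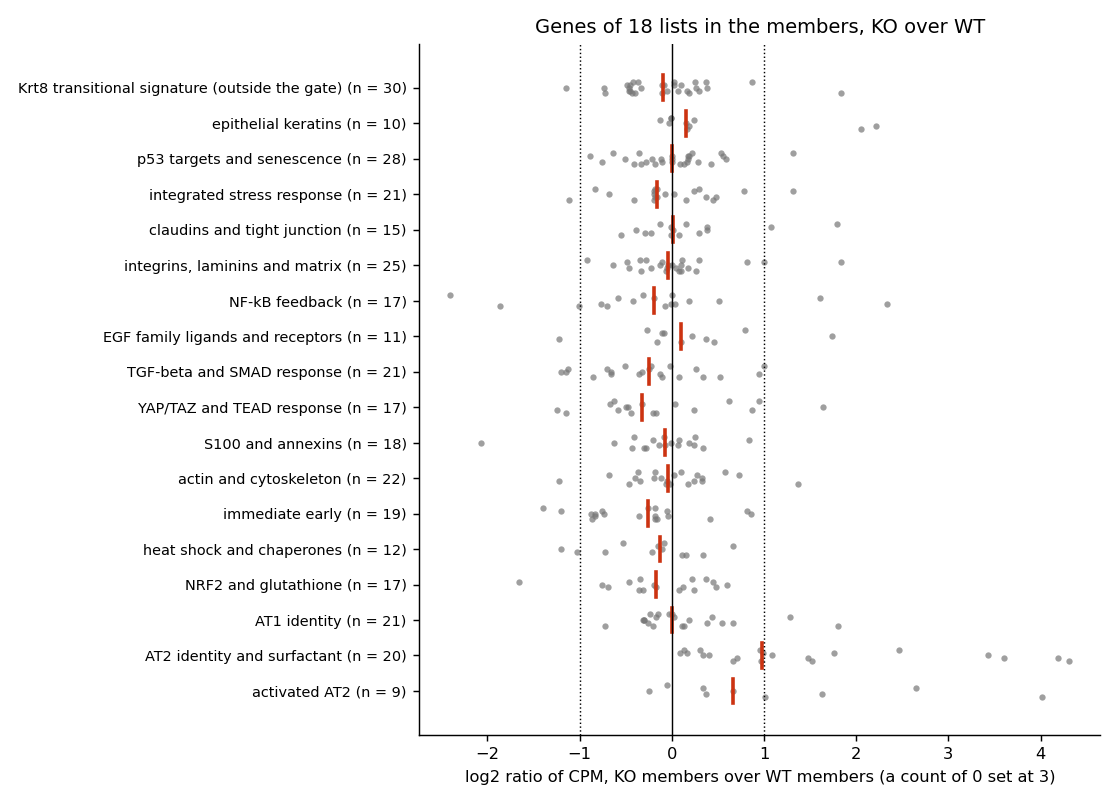
Log2 ratio of CPM in KO members over WT members for the tested genes of 18 lists (grey points; n is the number of genes tested), with list medians as red bars and dotted lines at 2-fold. Medians of the transitional, keratin, p53 and AT1 lists lie within 0.2 of 0, and that of the AT2 list lies at 0.98.

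Of 20 AT2 and surfactant genes, *Sftpc* of the rule among them, 9 were higher in KO and 0 lower, with a median of 0.98. Of 9 genes of activated AT2 cells 4 were higher, with a median of 0.66. The summed level of the AT2 and surfactant list in ciliated cells was 5054 CPM in WT and at 18851 CPM in KO, and in members 3384 and 8852 CPM. That of the activated AT2 list was 3057 and 2675 CPM in ciliated cells, and 723 and 1375 CPM in members. Within it, *Lcn2* and *Chil1* were higher in KO than in WT ciliated cells, the latter at 89.5 and 150.5 CPM, while *Retnla* was at 1193 and 538 CPM. The part of free RNA in these ratios was not tested. Where the limits on cells were read as UMIs, the median of the activated AT2 list was -0.28.

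A small number of genes was lower in KO in many cells. *Dusp1*, an immediate early phosphatase of MAP kinases, was at 541 CPM (459 to 635) in WT and at 207 CPM (189.6 to 224) in KO members, a log2 ratio of -1.39 (-1.65 to -1.12). It had UMIs in 35 of 50 WT and 169 of 370 KO members, and the ratio was -1.20 without the highest cells and -0.65 with the rule applied at 2000 UMIs. *Dusp1* was also lower in other KO cells, at 92.0 CPM beside 161 CPM in AT2 cells and at 45.5 beside 74.6 CPM in ciliated cells. Of 19 immediate early genes, 2 were lower (*Dusp1* and *Fosl2*) and 0 higher, with a median of -0.25 (-0.72 to 0.49 over the alternatives).

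*Hspb1*, the small heat shock protein 27, was at 3441 CPM in WT and at 1493 CPM in KO, a log2 ratio of -1.20 (-1.31 to -1.10). A single WT member held 317 of its 966 WT UMIs, and without the highest cells the ratio was -0.73. It was 0.08 where the limits were read as UMIs and -0.01 under a stricter rule, which also asked for fewer than 2 airway markers and no mesenchymal or mesothelial marker. *Cryab*, another small heat shock protein, was at 2354 and 1420.4 CPM, a ratio of -0.73 and of -0.31 without the highest cells.

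*Clic4*, a chloride intracellular channel protein followed by the study (chr4:135213969-135272814, minus strand), was at 409.6 CPM (338 to 492) in WT and at 204 CPM (187 to 222) in KO members, a log2 ratio of -1.01 (-1.30 to -0.70). It had UMIs in 36 of 50 WT and 215 of 370 KO members. Thinned to 2000 UMIs per cell, a UMI was found in 43.8% (29.5 to 58.8) of 48 WT members and 30.6% (25.8 to 35.7) of 350 KO members, beside 33.0% and 23.4% of ciliated cells and 31.2% and 21.1% of AT2 cells. The intervals overlapped in members and in ciliated cells (24.1 to 43.0 and 20.9 to 26.1). They were apart in AT2 cells (27.0 to 35.6 and 20.05 to 22.2) and in AT1 cells (26.1 to 45.4 and 15.4 to 22.2). The same held in club cells (12.6 to 30.4 and 7.24 to 11.7). In Ptprc-positive cells, far more numerous in the WT library, the share was 37.2% (36.1 to 38.4) and 28.2% (22.8 to 34.1). In CPM *Clic4* was at 276 and 131 in AT1 cells, 185 and 125 in AT2 cells and 173 and 136 in ciliated cells. The ratio in members was -0.72 without the highest cells and -0.17 under the stricter rule, which left 24 WT and 105 KO members. Of the 5 CLIC genes tested *Clic4* was the 1 gene past 2-fold, and *Clic1* had a ratio of 0.13 (-0.10 to 0.36). The window of 250 bases before the *Clic4* start held 1 match of TTTGAA, 35 bases before it.

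Values are given here for 2 lists and some genes that the study follows. Of 607 tested genes of its list of targets of the DREAM complex, which represses cell cycle genes in resting cells, 46 were higher in KO and 20 lower, with a median of 0.03. Of 289 tested genes of its list of SMAD3 targets from A549 cells, 23 were higher and 13 lower, with a median of -0.07. Over all genes, 9.42% were higher and 4.43% lower. In both lists the share higher in KO was under that of all genes. The share lower was under it for DREAM targets and close to it for SMAD3 targets. *Ccnd1*, the G1 cyclin, was at 509 CPM in WT and at 406 CPM in KO, a log2 ratio of -0.33 (-0.58 to -0.06) that became 0.07 without the highest cells. *Cd44*, the hyaluronan receptor, had a ratio of -0.11 (-0.41 to 0.21), and *Bmp4* of -0.22 (-0.85 to 0.48). Of 20 genes of G1/S and replication 10 were tested, with 0 higher and 3 lower (*Mcm6*, *Mcm2* and *Cdt1*), which had 11, 6 and 8 UMIs in WT, beside the 4.43% of all genes.

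Several large ratios rested on few cells. *Ccl5*, a chemokine of T cells, had 325 UMIs in 1 WT member and a ratio of -7.79, which became 1.14 without the highest cells. *Npy* had UMIs in 2 WT members. *Id1*, a BMP-induced inhibitor of helix-loop-helix factors, had 75 of its 97 WT UMIs in 1 cell, and its ratio of -2.46 became -0.48. *Mt1*, a metallothionein, had 280 of 479 WT UMIs in 1 cell, and its ratio of -1.13 became 0.04. On the higher side, *Bpifa1*, an airway secretory protein, had 1123 of its 1249 KO UMIs in 1 cell, and *Ltf*, lactoferrin, had 0 UMIs in WT and UMIs in 12 KO members, a ratio of at least 4.01 in log2 against a floor of 3 UMIs over the WT members. With 0.5 added to the WT count of 0, the log2 ratio of *Ltf* was 6.595. It was 0.53 with limits read as UMIs and 0.10 without carriers of other lineages' markers. These values rest on the added 0.5 and are not measured ratios.

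The libraries also differed in genes of the sex chromosomes. *Xist*, the RNA of the inactive X chromosome, was at 167 CPM in WT and at 951 CPM in KO members, and *Eif2s3y*, a Y-linked translation factor, at 89.1 and 14.2 CPM. Of 50 WT members, 5 had UMIs of *Xist* alone, 30 of Y-linked genes alone, 1 of both and 14 of neither. Of 370 KO members, 255 had *Xist* alone, 52 Y-linked genes alone, 11 both and 52 neither. In all kept cells, *Xist* alone was found in 15.9% of WT and 49.1% of KO cells. The methods of the study name male mice for its animal work, and the part of sex in the differences between the genotypes was not tested. Of 6 nuclear-retained RNAs, *Xist* among them, 2 were at least 2-fold higher in KO and 0 lower, beside 9.42% of all genes higher, with a median of 0.86 (0.32 to 1.61 over the alternatives) that was 0.50 with the gene at 0 in WT set at its bound. *Malat1*, the most abundant of them, was at a ratio of 0.30 (0.26 to 0.34). The median share of mitochondrial UMIs was 3.44% in WT and 2.96% in KO members.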

How the data were processed

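Lung epithelial cells were sequenced with the 10x 3' v3.1 chemistry. The authors deposited raw UMI counts of 31053 genes in every barcode of each library, aligned to GRCm38/mm10. The submitters' notes name Cell Ranger 3.1.0 with STAR, and the matrix header names 5.0.0. Barcodes with 201 to 4999 genes and under 20% mitochondrial UMIs were kept, 45824 of 47841. Library medians were 2127 UMIs in WT and 5957 in KO.

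UMIs were summed over members and expressed as CPM. Exact Poisson, exact conditional (ratios, with 0.5 added where a count was 0) and Clopper-Pearson intervals were computed with scipy 1.17.1 (Python 3.11.15). Genes with at least 20 UMIs over the members entered the comparison. Named genes were those of the rule, up to 6 of the most abundant per list, the 12 with the highest and lowest KO over WT ratio at 50 CPM or more, the 20 highest over AT2 and AT1 cells and those the study follows. *Ddit4*, *Phgdh*, *Axl*, *Plat*, *Fosl2*, *Mcm2*, *Mcm6*, *Cdt1*, *Aqp5*, *Cav1*, *Pdpn*, *Pxdc1*, *Sema3e*, *Napsa* and *Epcam* were named after their values were seen. AT2 cells had at least 5% *Sftpc*, *Lamp3* and *Slc34a2* and fewer than 3 AT1 markers; ciliated cells had *Foxj1* and at least 3 ciliated markers. The members and lists were chosen with earlier results of these data known. Scrublet (scanpy 1.11.5) called 1 of 50 WT and 12 of 370 KO members doublets, which were kept. On simulated independent Poisson counts, which the intervals assume, they held the set ratio in 96.7% to 97.6% of genes. There a log2 change of 1.5 was called in 88.0% and 9.83% of unchanged genes passed 2-fold. The UMIs of some genes gathered in single members, so the simulation cannot show how well the intervals hold in these data.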

Additional observations from a re-analysis of the deposited data

How the results depend on the processing

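With 1 library per genotype, depth and the 50 WT members set the precision: a gene at 0 in WT could still be at 13.1 CPM. No paired analysis was possible because each genotype had 1 library. The KO minus WT difference in share of kept cells (2.20 points) stayed above 0 under all alternatives that changed the cells and was 1.82 with limits read as UMIs, 1.54 with the rule at 2000 UMIs, 1.83 with at least 3 second markers, 1.58 with fewer than 2 AT1 markers, 0.592 with a stricter rule on other lineages and 1.85 without carriers of other lineages' markers. Genes at least 2-fold higher (974) numbered 484 with limits read as UMIs, 406 under the stricter rule, 471 at 50 UMIs or more per gene and 1500 without each gene's highest cell. Genes at least 2-fold lower (458) numbered 190 at 50 UMIs, 2838 at 1 UMI and 211 without the highest cell. Both carrier settings and the highest-cell setting were chosen after seeing the data.

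List medians changed sign in 113 of 699 values, over 32 of 38 medians, but from 0.5 or more in 2 values only, both with limits read as UMIs: -0.276 for activated AT2 genes and -0.083 for club markers. Medians nearer 0, such as those of the TGF-beta and YAP lists, crossed 0 under some settings. Of 1987 values of named genes, 188 changed sign, over 67 of 106 genes, and 24 of these were of genes past 2-fold with all members. With limits read as UMIs (24 WT members), the log2 ratio was 0.31 for *C1qa*, 2.25 for *Ccl5*, 0.081 for *Hspb1*, 0.16 for *Id1*, -2.60 for *Krt15*, -1.28 for *Krt17*, 0.40 for *Mt1*, 1.97 for *Npy*, -2.28 for *Plat* and 0.28 for *Smad7*. At 2000 UMIs it was 1.86 for *Ccl5* and 2.00 for *Ctgf*. With 3 second markers, *Phgdh* was at 0.17. Under the stricter rule it was -0.041 for *Ankrd1* and *Bpifa1*, 1.54 for *Ccl5*, 2.495 for *Mcm6*, 0.44 for *Npy*, 0.81 for *Phgdh* and 0.22 for *Tgfb3*. Without carriers of other lineages' markers, *Krt15* was at -1.77 and *Krt17* at -1.04. Without the highest cell, *Ccl5* was at 1.14 and *Mt1* at 0.041. Fewer cells or UMIs enter each of these settings, and the cause of single changes was not tested. A ratio with a count of 0 in a library rests on the added 0.5 and is not a measured change. *Plat* shared its -2.28 with the lowest values of *Phgdh* and *Cdt1*, and *Ankrd1* and *Bpifa1* shared -0.041. No change is read from these shared values.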

Other observations

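Further gene groups of the Krt8-high cells belong to no comparison above. Of 18 S100 and annexin genes, 14 were at least 2-fold higher than in AT2 cells in both libraries and 2 higher than in AT1 cells. *S100a6*, a calcium-binding protein of motile and stressed cells, was at 8210.4 CPM in WT members and 6676 CPM in KO members, over 305 and 216 CPM in AT2 cells. *Anxa1*, a phospholipid-binding protein that dampens inflammation, was at 2048 and 2443 CPM, over 145 and 123 CPM in AT2 cells. Actin and cytoskeleton genes were higher than in AT2 cells in 16 of 22 and higher than in AT1 cells in 1. Between genotypes, 1 of the 18 S100 and annexin genes was lower in KO and 0 higher, and of the 22 cytoskeleton genes 1 was higher and 1 lower.

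Of 17 NRF2 and glutathione genes, 9 were higher than in AT2 cells and 4 higher than in AT1 cells. *Gsto1*, a glutathione transferase, was at 346 CPM in WT members and 402 CPM in KO members over 5.41 and 7.62 CPM in AT2 cells, but ciliated cells held 365 and 322 CPM. *Gclm*, a subunit of the enzyme that starts glutathione synthesis, was at 306 and 97.4 CPM, a KO over WT ratio of -1.65 (-2.01 to -1.28) in log2, and of -1.13 without the highest cells. It was the 1 gene of the 17 past 2-fold between the genotypes. Of 17 hypoxia and glycolysis genes, 7 were higher than in AT2 cells, and between genotypes 1 was higher and 3 lower in KO. Of 15 interferon genes, 8 were higher than in AT2 cells and 3 lower than in AT1 cells. *Isg15*, a ubiquitin-like interferon target, was at 32.1 CPM in WT members and 158 CPM in KO members, a ratio of 2.30 (1.36 to 3.44), with UMIs in 6 WT and 117 KO members. The other interferon genes past 2-fold were 3 that were lower in KO.

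MHC class II genes were lower than in AT2 cells in 6 of 7 and lower than in AT1 cells in 1. Genes of Wnt, BMP and Notch signalling were higher than in AT2 cells in 4 of 12, 3 of 12 and 3 of 6, and between genotypes 0, 2 and 1 of them were lower in KO with 0 higher. Of 13 chemokine and cytokine genes, 8 were higher and 2 lower than in AT2 cells, and 4 were higher than in AT1 cells. Their summed level was 1265 CPM in WT and 1150 CPM in KO members, below the 7403 and 7507 CPM of AT2 cells. Of 11 EGF family genes, 5 were higher than in AT2 cells and 2 lower. Of 17 cell death genes, 5 were higher than in AT2 cells and 0 differed by 2-fold from AT1 cells in both libraries.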
